A study of Mus musculus with 272 samples.

Results

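Bivalent promoters are promoters that carry H3K4me3, a mark of transcription start, together with H3K27me3, a mark of repression. They were mapped here in mouse muscle stem cells (MuSCs), the resident stem cells of skeletal muscle. A protein-coding gene of GENCODE M21 was taken as bivalent if, in both replicates, at least 1 H3K4me3 peak and at least 1 H3K27me3 peak reached within 3 kb of any of its transcription start sites (TSSs). The members were thus chosen by the measured H3K4me3 and H3K27me3 peaks, and 845 of 21938 protein-coding genes met the rule, a background share of 3.85%. Taken singly, H3K4me3 was found in both replicates at 60.8% and H3K27me3 at 4.81% of all protein-coding genes. What is given below on the presence, width and fold enrichment of these 2 marks therefore describes the members and is not a test. ATAC-seq, H3K27ac and the sequence were not used by the rule.

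The cells were GFP+ MuSCs sorted by FACS from hindlimb muscle of Pax7Cas9 mice, in which Cre expressed from Pax7 switches on Cas9 and EGFP, so that descendants of Pax7+ cells carry the label too. No injection, injury or other treatment is given in the labels for these libraries, and age and strain are not given there either. ATAC-seq, which marks open chromatin, and ChIP-seq for H3K4me3, H3K27me3 and H3K27ac, found at active regulatory DNA, had 2 replicates each, 8 libraries of the 272 samples of the series. The series also holds a single input labelled for H3K27me3 and H3K4me3 and a single input labelled for H3K27ac, which were not analysed here. The other samples measured Cas9 editing outcomes, for which the chromatin was mapped to look for features related to indels. The labels do not say whether replicates were separate mice, so that differences between replicates may be technical. Each library came from many cells, so that 1 cell population with both marks and a mixture of cells with either mark cannot be told apart.

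In embryonic stem cells, bivalent promoters are known to sit mainly at CpG islands of developmental regulators. H3K4me3 is deposited by Trithorax-type complexes of the SET1/MLL family and H3K27me3 by Polycomb repressive complex 2. The pair of marks is generally read as a state of low transcription that can resolve toward activation, with loss of H3K27me3, or toward stable repression, with loss of H3K4me3. H3K27ac occupies the same lysine as H3K27me3, so that a single histone tail cannot carry both at this position.

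The libraries differed in how many peaks they gave. On the 21 assembled chromosomes, the H3K27me3 lists held 6064 and 10458 peaks in replicates 1 and 2 and the H3K4me3 lists 20512 and 18001. H3K27ac gave 24209 and 18584 peaks and ATAC-seq 140716 and 94382. The H3K27me3 peaks were called at a looser limit than the others, with a lowest −log10 p of 3.01 in both lists, and 52.7% and 61.5% of them had a q of at most 0.05, against 100% in the other lists. No read numbers are in the lists, so that depth is unknown and a promoter without a listed peak may lack the mark or lack depth. All 13 genes of a MuSC marker list had H3K4me3 at the promoter in both replicates, beside 60.8% of all protein-coding genes. The same held for 5 of 10 endothelial and 4 of 9 blood cell markers, so that this is only a weak check of the label. Of the 13 genes 0 were bivalent, beside 3.85% of all genes, and the list is too short to tell these shares apart.

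The sequences below are single examples at the base level. They were chosen among the bivalent genes with the longest runs of bases inside the peaks of both marks in all 4 libraries and outside annotated exons. Not all of the longest runs are printed, including some with a GC content under 50%, so that the base composition of those shown does not stand for that of the members. The central 200 bases of each run are printed in the direction of the gene, from GRCm38.p6 (mm10), with every CpG dinucleotide in capitals. The first 3 had no H3K27ac peak in either replicate.
Otx1: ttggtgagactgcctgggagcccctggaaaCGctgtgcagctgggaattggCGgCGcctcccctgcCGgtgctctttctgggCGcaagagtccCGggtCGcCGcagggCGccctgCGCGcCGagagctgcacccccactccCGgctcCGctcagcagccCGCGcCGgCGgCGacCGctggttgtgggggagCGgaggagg
Neurog2: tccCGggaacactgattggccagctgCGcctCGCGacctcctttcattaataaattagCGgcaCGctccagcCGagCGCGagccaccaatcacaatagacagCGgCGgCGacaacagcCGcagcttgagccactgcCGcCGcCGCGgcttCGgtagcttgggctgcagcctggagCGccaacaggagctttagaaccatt
Lhx4: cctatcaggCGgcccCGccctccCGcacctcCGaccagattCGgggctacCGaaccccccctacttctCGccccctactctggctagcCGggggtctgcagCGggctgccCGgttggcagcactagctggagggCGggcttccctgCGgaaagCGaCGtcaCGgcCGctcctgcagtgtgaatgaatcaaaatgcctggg

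The region of *Otx1*, a homeobox gene of forebrain development, lies at chr11:22002112-22002311 on the minus strand, in an intron of the gene and 502 bp from the nearest TSS. It holds 21 CpGs in 200 bases, with a GC content of 73.5% and a CpG observed/expected ratio of 0.779. This ratio divides the CpGs found by those that the C and G content alone would give. The region of *Neurog2*, a proneural bHLH gene, at chr3:127632666-127632865 on the plus strand, lies 369 bp upstream of its TSS and holds 19 CpGs. *Lhx4*, a LIM homeobox gene, has 16 at chr1:155742229-155742428, in an intron on the minus strand. The observed/expected ratios of the 3 regions ran from 0.711 to 1.02.

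The next region comes from a bivalent gene with H3K27ac in both replicates, chosen in the same way. It is followed by 1 gene with H3K4me3 and no H3K27me3 and 1 gene with H3K27me3 and no H3K4me3, each chosen by the longest run in its own mark.
Irx5: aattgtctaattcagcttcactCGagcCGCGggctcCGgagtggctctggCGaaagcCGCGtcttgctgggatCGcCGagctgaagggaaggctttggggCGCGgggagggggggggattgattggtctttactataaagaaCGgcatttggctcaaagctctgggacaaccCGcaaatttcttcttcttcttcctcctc
Per1: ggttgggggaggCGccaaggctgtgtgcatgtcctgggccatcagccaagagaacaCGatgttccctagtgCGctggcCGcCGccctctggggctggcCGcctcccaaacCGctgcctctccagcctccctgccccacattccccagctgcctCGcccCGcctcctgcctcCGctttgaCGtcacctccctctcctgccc
Gm10837: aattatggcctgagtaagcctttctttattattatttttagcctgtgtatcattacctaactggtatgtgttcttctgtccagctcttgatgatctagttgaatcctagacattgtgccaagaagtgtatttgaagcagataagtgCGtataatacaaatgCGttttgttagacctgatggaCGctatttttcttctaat

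The run of *Irx5*, an Iroquois homeobox gene, lies at chr8:92358575-92358774 in an intron, 926 bp downstream of the nearest TSS. It holds 13 CpGs, with an observed/expected ratio of 0.842. The H3K4me3-only region of the clock gene *Per1*, at chr11:69097026-69097225, holds 11 CpGs at a ratio of 0.496. The H3K27me3-only region of *Gm10837*, a predicted gene, at chr14:122489663-122489862, lies outside protein-coding genes and holds 3 CpGs with a GC content of 35.5%. These single regions illustrate the classes, and the whole classes are compared further on.

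The bivalent genes were led by transcription factors of the body plan. Of the 39 *Hox* genes, which set position along the body axis, 22 were bivalent, 7 had H3K4me3 in both replicates with no H3K27me3 in either, and 4 had H3K27me3 in both with no H3K4me3 in either. Of the 144 other homeobox genes, 76 were bivalent, 24 had H3K4me3 alone and 22 had H3K27me3 alone. Together the homeobox lists gave 98 of 183 genes, or 53.6%, beside 3.85% of all protein-coding genes, and 11.6% of all members. The lists were chosen with earlier results of these data known, so the shares are descriptions.

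**Figure D1:**
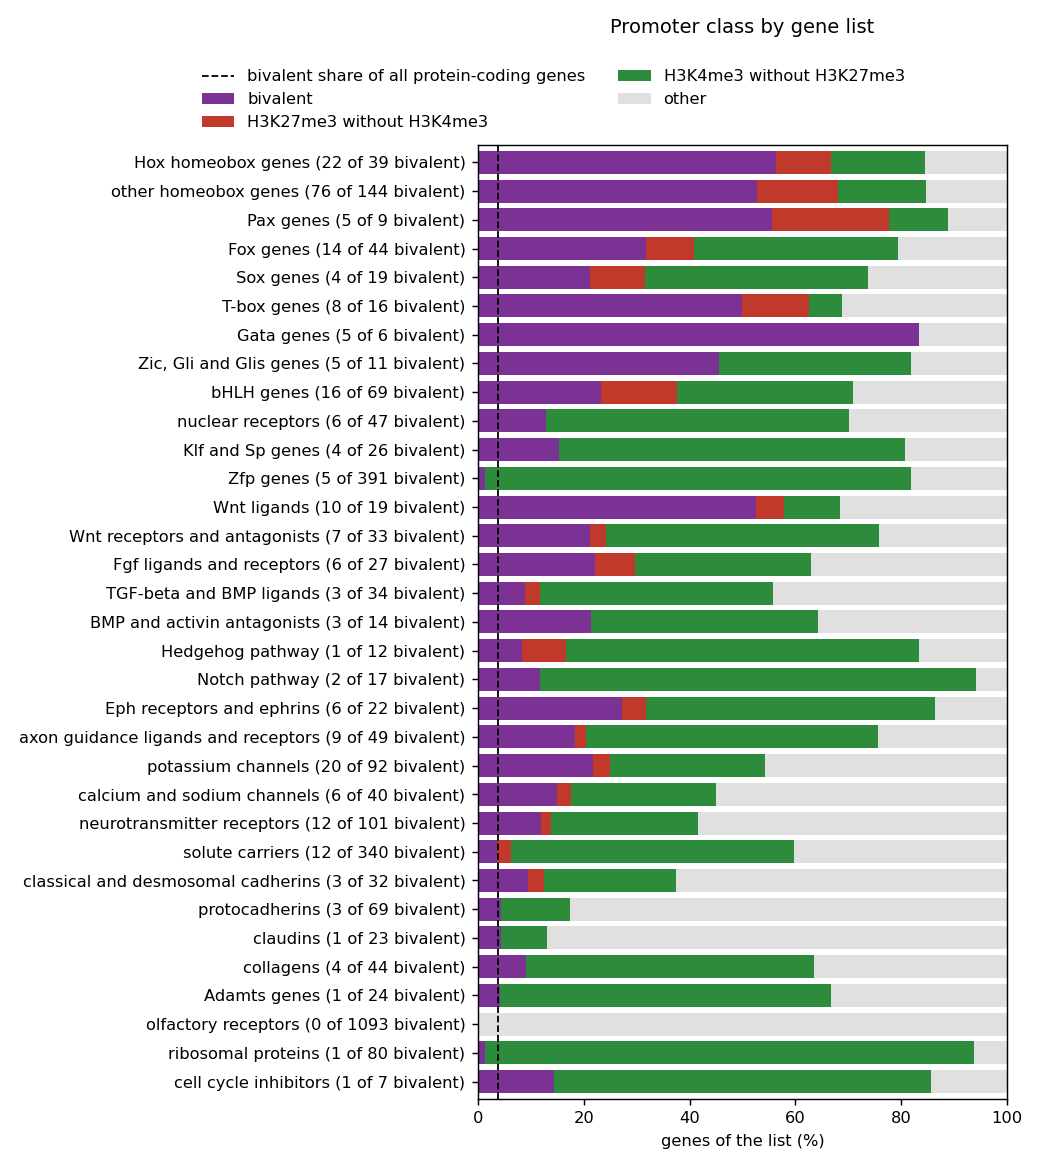
Promoter class of the genes of each list, as percent of the list on the x axis, with the bivalent share of all protein-coding genes, 3.85%, as a dashed line. Homeobox, *Pax*, T-box, *Gata* and Wnt ligand genes reach shares of at least 50% bivalent, whereas 0 of 1093 olfactory receptor genes and 1 of 80 ribosomal protein genes were bivalent.

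The *Hox* clusters were not alike. In the *Hoxa* cluster on chromosome 6, 4 of 11 genes were bivalent, among them *Hoxa11* and *Hoxa13*. The genes *Hoxa3*, *Hoxa4*, *Hoxa5*, *Hoxa6*, *Hoxa7* and *Hoxa10* had H3K4me3 without H3K27me3. In the *Hoxb* cluster 6 of 10, in the *Hoxc* cluster 6 of 9 and in the *Hoxd* cluster 6 of 9 genes were bivalent, and 0 *Hoxb* and 0 *Hoxd* genes had H3K4me3 alone. Of the 4 genes with H3K27me3 alone, *Hoxb1* and *Hoxb13* were in the *Hoxb* cluster and *Hoxd10* and *Hoxd12* in the *Hoxd* cluster. These genes are given by class because the clusters were compared after their values had been seen.

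The *Hox* genes with the most promoter bases in H3K27me3 peaks, taking the lower replicate, were *Hoxc13*, *Hoxa13*, *Hoxd13* and *Hoxb8*, the first 3 of which pattern the most distal structures. *Hoxc13* had 3865 and 5131 bp in H3K27me3 peaks and 712 and 474 bp in H3K4me3 peaks in replicates 1 and 2. *Hoxa13* had 3833 and 4780 bp of H3K27me3 and 1782 and 1473 bp of H3K4me3. In both genes H3K27me3 covered more of the promoter than H3K4me3 in every library, and the same held for *Hoxd13* (3712 and 4971 against 864 and 639 bp) and *Hoxb8* (3646 and 4770 against 842 and 702 bp). None of the 4 had an H3K27ac peak. All had ATAC-seq peaks in both replicates, with fold enrichments from 5.43 in *Hoxd13* to 14.03 in *Hoxb8*. These 4 were picked for the most H3K27me3, so that the order of their widths does not stand for the list. Over all members, the median cover was 471 and 1071 bp for H3K27me3 and 1557 and 1160 bp for H3K4me3. The 4 do not stand for the list in H3K27ac either. Of the 22 bivalent *Hox* genes, 12 lacked it in both replicates, beside 74.7% of all members, and 5 carried it in both. In the lists below, a few members that all lack H3K27ac do not set a list apart from this 74.7%.

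Among the other homeobox genes the widest H3K27me3 was at *Otp*, *Lhx1*, *Shox2* and *Lhx9*, developmental genes of hypothalamus, kidney and spinal cord, heart and limb, and gonad. *Otp* had 7358 and 8819 bp in H3K27me3 peaks against 1281 and 770 bp in H3K4me3 peaks. *Lhx1* had 6834 and 7744 against 2042 and 994 bp. For *Shox2* these were 6689 and 7028 against 1530 and 764 bp. *Lhx9* reached 6678 and 9151 bp of H3K27me3. None of these 4 genes had an H3K27ac peak, as was the case for 70 of the 76 bivalent genes of this list, beside 74.7% of all members.

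The *Pax* family has a special place in these cells, since Pax7 defines MuSCs and drove the Cre. *Pax7* was not a member, with H3K4me3 and H3K27ac in both replicates and no H3K27me3 in either. Of 9 *Pax* genes, 5 were bivalent, namely *Pax2*, *Pax3*, *Pax5*, *Pax6* and *Pax9*. *Pax6*, a regulator of eye and brain, had more H3K27me3 than any other member, with 13041 and 18203 bp over its many TSSs, and 2391 and 1595 bp of H3K4me3. *Pax3*, the paralog of *Pax7* that acts in muscle progenitors of the embryo, had 1138 and 2182 bp of H3K27me3, and its H3K4me3 covered 1839 and 1740 bp. *Pax2* (3497 and 5806 bp of H3K27me3) and *Pax5* (2738 and 4851 bp) lay between. All 5 lacked H3K27ac, as did 74.7% of all members, and had ATAC-seq peaks in both replicates, as did 95.9%.

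Other families of developmental transcription factors followed. Of the 6 *Gata* genes 5 were bivalent, and all 5 lacked H3K27ac, beside 74.7% of all members. *Gata3*, a regulator of T cells and kidney, had 6466 and 9314 bp in H3K27me3 peaks, and the blood regulator *Gata2* had 6131 and 7990 bp. H3K4me3 at *Gata2* was also broad, with 3760 and 2222 bp. *Gata4*, a heart factor, had 4073 and 6165 bp of H3K27me3 but only 510 and 386 bp of H3K4me3.

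Of 16 T-box genes 8 were bivalent. *Tbx18* had 4348 and 4865 bp in H3K27me3 peaks and no H3K27ac, and *Eomes* had 2944 and 4379 bp and no H3K27ac. *Tbx3*, a limb gene, differed in that it carried H3K27ac in both replicates, with fold enrichments of 5.75 and 8.83, beside 1136 and 1917 bp of H3K27me3 and 5191 and 3940 bp of H3K4me3. *Tbx2* had an H3K27ac peak in replicate 1 only, with a fold enrichment of 3.07.

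Of 44 *Fox* genes 14 were bivalent and 17 had H3K4me3 alone. *Foxd1* (5184 and 5502 bp of H3K27me3), *Foxd3* (4667 and 5436 bp), *Foxa1* (3728 and 5593 bp) and *Foxl2* (3619 and 4381 bp) had the most. These act in kidney stroma, neural crest, endoderm and ovary, and none of the 4 had H3K27ac. Of 19 *Sox* genes 4 were bivalent. *Sox2*, a factor of pluripotent and neural stem cells, had 4053 and 4447 bp of H3K27me3 and 1456 and 373 bp of H3K4me3. *Sox1*, a neural gene, had 3359 and 4473 bp of H3K27me3 and the shortest H3K4me3 of the family members, 388 and 177 bp.

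Of 69 bHLH genes 16 were bivalent, among them neural genes such as *Neurog2*, which had 4765 and 5616 bp of H3K27me3 and 2296 and 2212 bp of H3K4me3. *Tal1*, a blood and endothelial regulator, had 3413 and 5568 bp of H3K27me3 and an H3K27ac peak in replicate 1 only, with a fold enrichment of 6.9. *Olig1*, a gene of oligodendrocytes, had 2408 and 3088 bp of H3K27me3 and no H3K27ac. The myogenic bHLH genes *Myod1*, *Myf5* and *Myf6* were not members, with H3K4me3 and H3K27ac in both replicates and H3K27me3 in neither. *Myog*, the bHLH gene of differentiation, had H3K4me3 in both replicates with neither H3K27me3 nor H3K27ac, and was not a member either.

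Zinc finger families divided. Of 11 *Zic*, *Gli* and *Glis* genes 5 were bivalent. *Zic4* had 7543 and 12817 bp in H3K27me3 peaks and 7437 and 4498 bp in H3K4me3 peaks, so that both marks were broad. *Zic1* likewise had 4361 and 5201 bp of H3K27me3 beside 4949 and 3313 bp of H3K4me3. Of 26 *Klf* and *Sp* genes 4 were bivalent, led by *Sp9* with 3959 and 4285 bp of H3K27me3, and 17 had H3K4me3 alone. Of 391 *Zfp* genes only 5, or 1.28%, were bivalent, below the 3.85% of all genes, and 315 had H3K4me3 alone. Of 47 nuclear receptor genes 6 were bivalent, led by *Nr2e1*, a regulator of neural stem cells, with 6009 and 8628 bp of H3K27me3.

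Over all transcription factor lists except the *Zfp* genes, 165 of 430 genes were bivalent, or 38.4%, and these made up 19.5% of the members. The signalling lists gave 47 of 227 genes, or 20.7%, and the lists of channels, receptors and other membrane proteins 57 of 697, or 8.18%. All lists together held 284 of the 845 members, so that most members belong to no list used here.

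Among signalling genes, the ligands of the Wnt pathway stood out by count. Of 19 Wnt ligand genes 10 were bivalent, 2 had H3K4me3 alone and 1 had H3K27me3 alone. All 10 bivalent ligands lacked H3K27ac in both replicates, beside 74.7% of all members. *Wnt7b* had 2312 and 4165 bp in H3K27me3 peaks and 1710 and 1376 bp in H3K4me3 peaks. *Wnt10b* had 1294 and 2121 bp of H3K27me3, and *Wnt3a* 844 and 2493 bp. *Wnt7a*, a ligand known to act on MuSCs, had 483 and 1417 bp of H3K27me3 and 973 and 742 bp of H3K4me3. In each of these 4 genes replicate 2 had the longer H3K27me3.

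Of 33 Wnt receptor and antagonist genes 7 were bivalent and 17 had H3K4me3 alone. *Sfrp1*, a secreted antagonist, had 584 and 704 bp of H3K27me3. *Rspo1*, which strengthens Wnt signalling, had 570 and 1348 bp and was a rare member with no ATAC-seq peak in either replicate. *Lgr5*, an R-spondin receptor, had 346 and 873 bp, and *Notum*, a Wnt-inactivating enzyme, 280 and 825 bp. None of these 4 had H3K27ac.

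Other ligands, receptors and antagonists were bivalent in smaller numbers. Of 27 Fgf ligands and receptors 6 were bivalent. *Fgf9* had 910 and 1220 bp of H3K27me3 beside broad H3K4me3 of 6416 and 4445 bp, and *Fgf20* carried H3K27ac in both replicates with fold enrichments of 13.03 and 8.46. Of 34 TGF-beta and BMP ligands 3 were bivalent, or 8.82% beside 3.85% of all genes, namely *Gdf6*, *Gdf7* and *Gdf10*. None of the 3 had H3K27ac. Of 14 BMP and activin antagonists 3 were bivalent, *Fst*, *Nog* and *Sost*. *Fst* encodes follistatin, an inhibitor of myostatin and activin, and had 857 and 1790 bp of H3K27me3 beside 4617 and 2889 bp of H3K4me3. *Nog* had 242 and 520 bp of H3K27me3. Peaks of the 2 marks overlapped in both replicates in 1 of the 3 antagonists and 3 of the 6 Fgf members, beside 70.8% of all members.

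In the Hedgehog list, beside 3.85% of all genes, 1 of 12 genes or 8.33% was bivalent. This was the receptor gene *Ptch1*, with more promoter bases in H3K4me3 peaks than any other member, 7650 and 7194 bp, with H3K27ac at fold enrichments of 19.2 and 11.03 and only 455 and 688 bp of H3K27me3. Of 17 Notch pathway genes 2 were bivalent, the ligands *Dll4* (205 and 723 bp of H3K27me3) and *Dll3* (130 and 434 bp), and 14 had H3K4me3 alone. Of 22 Eph receptors and ephrins 6 were bivalent, led by *Efna3* with 1702 and 3391 bp of H3K27me3. Of 49 axon guidance genes 9 were bivalent, led by *Ntng2* with 1101 and 1767 bp.

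Genes of excitable cells formed another group. Of 92 potassium channel genes 20 were bivalent, or 21.7%. Of the 20, 19 lacked H3K27ac in both replicates, beside 74.7% of all members. *Kcng3* had 1764 and 2631 bp of H3K27me3, *Kcna7* 1328 and 2099 bp, *Kcnh3* 1166 and 3643 bp and *Kcnc4* 1148 and 3053 bp. Of 40 calcium and sodium channel genes 6 were bivalent, led by *Cacna1g* with 731 and 1266 bp. Of 101 neurotransmitter receptor genes 12 were bivalent, led by the adrenoceptor gene *Adra2a* with 1529 and 1764 bp. All 12 lacked H3K27ac, again beside 74.7% of all members. Solute carriers were near the background with 12 of 340, or 3.53%. Of 32 classical and desmosomal cadherins 3 were bivalent, or 9.38%. Protocadherins, with 3 of 69, and claudins, with 1 of 23, were each at 4.35%, near the 3.85% of all genes.

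Matrix and housekeeping lists differed. Of 44 collagen genes 4 were bivalent, or 9.09% beside 3.85% of all genes, *Col2a1*, *Col13a1*, *Col14a1* and *Col27a1*. *Col2a1*, the collagen of cartilage, had the most H3K27me3, 1360 and 2744 bp. Of 24 *Adamts* and *Adamtsl* genes 1 was bivalent, or 4.17%, near the share of all genes. Of the 80 ribosomal protein genes, 1 was a member, or 1.25%, and 74 had H3K4me3 alone. Of 7 cell cycle inhibitor genes *Cdkn2a* was the single member, with 3065 and 4682 bp of H3K27me3 and 1845 and 1872 bp of H3K4me3. Its peaks of these 2 marks did not overlap in both replicates. It had an H3K27ac peak in replicate 2 only, with a fold enrichment of 3.47.

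Markers of other cell types that a sort from muscle could hold included a few members. The bivalent share was 10% of the fibro-adipogenic, 20% of the myofibre and 10% of the neuron markers, in lists of 10 genes each, beside 3.85% of all genes. Of 10 fibro-adipogenic markers only *Pdgfra* was bivalent, with 2943 and 4974 bp of H3K27me3 and 3817 and 2881 bp of H3K4me3 and no H3K27ac. Of the other fibro-adipogenic markers 4 had H3K4me3 alone. Of 10 endothelial and 9 blood cell markers 0 were bivalent, and 3 and 4 had H3K4me3 alone. Of 10 myofibre markers, *Ckm* (419 and 696 bp of H3K27me3) and *Acta1* (223 and 398 bp) were bivalent without H3K27ac. *Acta1* was also the only member among 17 genes of myogenic differentiation. It was no longer a member with H3K27me3 peaks at a q of at most 0.05 only. Its H3K4me3 and H3K27me3 peaks did not overlap in both replicates. *Ckm* stayed a member at this limit, and its peaks overlapped in both replicates. Of 10 neuron markers *Slc17a7* was bivalent, with 100 and 486 bp of H3K27me3. It stayed a member at the same q limit, but its H3K4me3 and H3K27me3 peaks did not overlap in both replicates. The part of other cells in the sorted population in these peaks was not tested. Of a list of 12 genes targeted by sgRNAs in the study, which does not hold every gene edited there, 0 were bivalent and 12 had H3K4me3 alone.

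Open chromatin was nearly as frequent at bivalent promoters as at promoters with H3K4me3 alone. An ATAC-seq peak was found at 98.5% of the 845 bivalent genes in replicate 1 and 96.4% in replicate 2, against 99.4% and 99% of the 11876 genes with H3K4me3 alone. The difference was −1.77 percentage points ± 1.16 (SD, n = 2 libraries). Both replicates had a peak at 810 of 845 bivalent genes, or 95.9%, beside 67.8% of all protein-coding genes. Only 8 bivalent genes had none in either replicate. At the 133 genes with H3K27me3 alone, the shares were 75.2% and 50.4%.

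The difference between bivalent and H3K4me3-only genes was far larger for H3K27ac. A promoter peak was found at 24.7% and 21.1% of bivalent genes in replicates 1 and 2, against 86.7% and 82.5% of genes with H3K4me3 alone, 0% in both libraries of genes with H3K27me3 alone, and 50.1% and 47% of all genes. The bivalent share was lower by 61.7 percentage points, with an SD of 0.419 over the 2 libraries, so that the difference was much larger than the spread between replicates. Of the bivalent genes 173, or 20.5%, had H3K27ac in both replicates, 41 in 1 replicate and 631 in neither, beside 46.6% of all genes with H3K27ac in both. In an exact permutation test over the library shares, two-sided, p was 0.333 for H3K27ac and for ATAC-seq, the smallest that 2 against 2 shares can give. Both classes were measured in the same 2 libraries, so that their shares are paired, which this test ignores. Paired by library, the exact permutation test gave a p of 0.5 for each, the smallest that 2 pairs can give. The tests compare libraries and not genes.

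**Figure D2:**
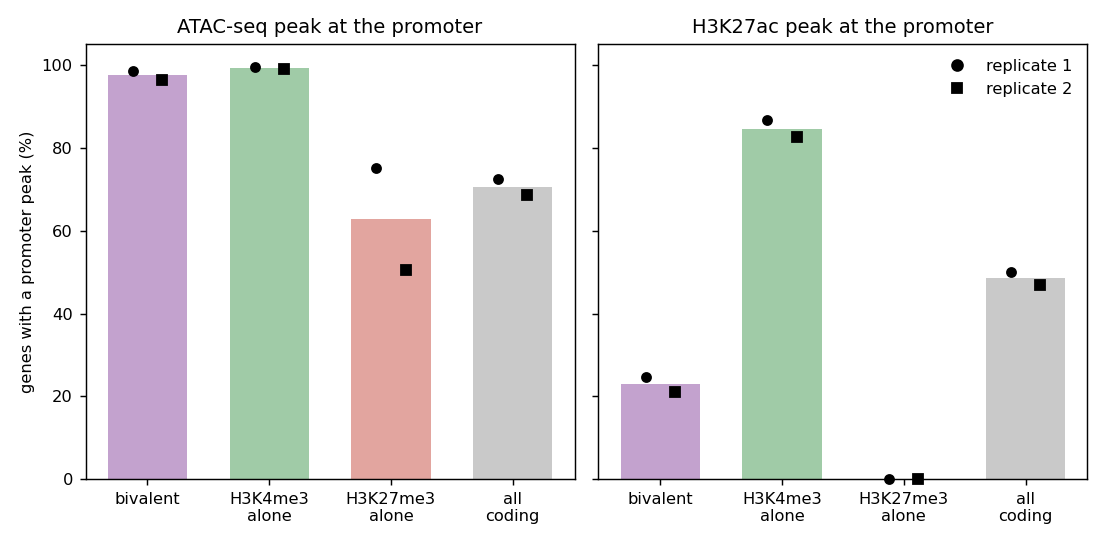
Share of genes with a promoter peak of ATAC-seq (left) and H3K27ac (right) in each promoter class, in percent, with bars as the mean of 2 replicates and points as the libraries. Bivalent genes sit beside H3K4me3-only genes for ATAC-seq, at 96.4% or above, but at 24.7% or below for H3K27ac.

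The number of TSSs differed between the classes, and genes with more TSSs have more promoter sequence in which to meet a peak. Bivalent genes had a median of 3 TSSs and H3K4me3-only genes of 5, and 23.1% and 10.6% had a single TSS. Among genes with 1 TSS, 11.3% and 7.69% of 195 bivalent genes had H3K27ac in replicates 1 and 2, against 76.7% and 71.8% of 1264 H3K4me3-only genes. The difference thus had the same direction and a similar size, −64.8 percentage points, in genes with equal promoter length. Bivalent genes with H3K27ac in both replicates had a median of 5 TSSs, and those with H3K27ac in neither of 3.

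Where present, ATAC-seq peaks together covered fewer promoter bases and were lower at bivalent than at H3K4me3-only promoters. The median cover was 634 bp in replicate 1 and 621 bp in replicate 2. It was 813 and 834 bp at H3K4me3-only promoters and 186 and 196 bp at H3K27me3-only promoters. Bivalent genes also had less promoter sequence, a median of 9641 bp against 12029 bp at H3K4me3-only genes. Among genes with 1 TSS, with equal promoter length, the median cover was 497 and 522 bp at bivalent and 698 and 717 bp at H3K4me3-only promoters. The median of the highest fold enrichment was 10.5 and 8.47 at bivalent, 14.5 and 13.3 at H3K4me3-only and 7.56 and 5.55 at H3K27me3-only promoters. At the TSS base itself, the anchor TSS with the most H3K4me3 bases nearby being used, 49.6% and 48.6% of bivalent genes lay inside an ATAC-seq peak, against 82.1% and 82.4% of H3K4me3-only genes. Bivalent promoters were therefore nearly always open somewhere within 3 kb, but less often at that TSS in both libraries.

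**Figure D3:**
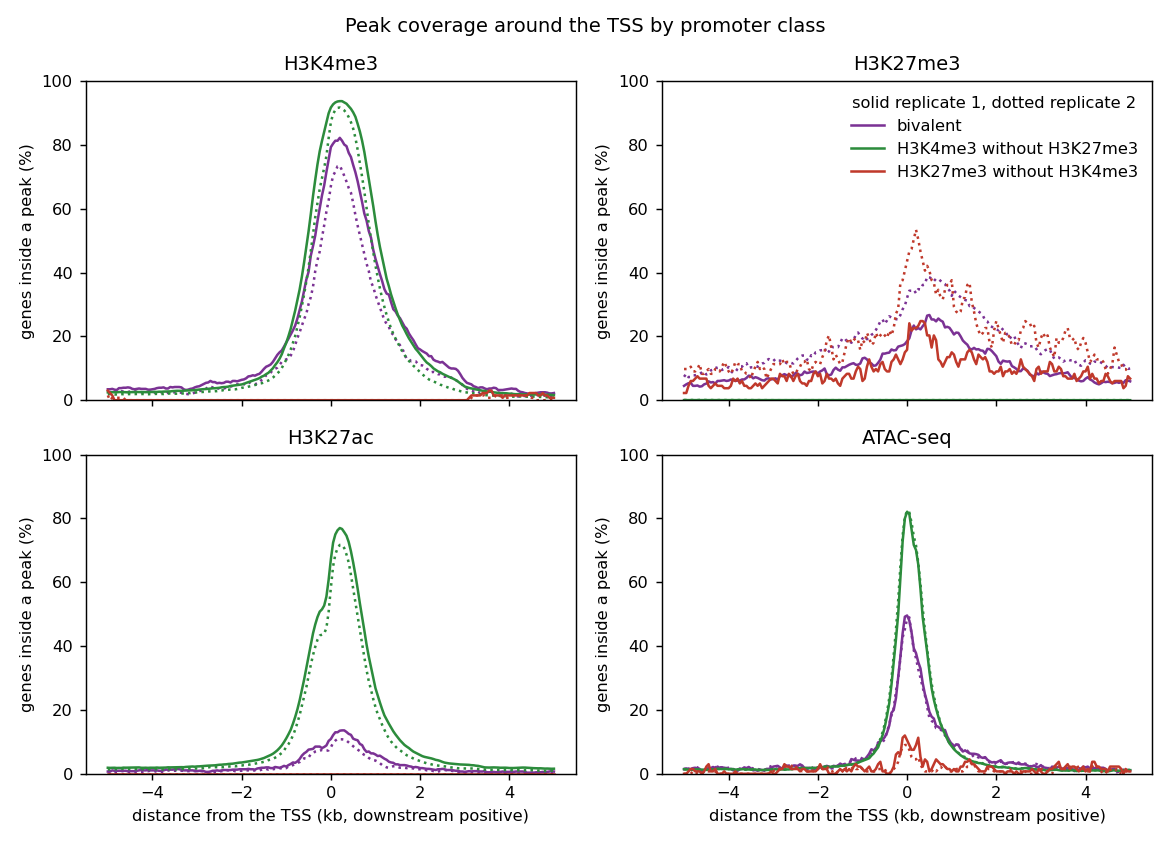
Percent of genes of each class inside a peak at each distance from the anchor TSS, from −5 to 5 kb, for the 4 features, with replicate 1 solid and replicate 2 dotted. At bivalent genes H3K4me3 reaches 82.2% and 73.5% at 200 bp downstream, H3K27me3 forms a low and broad hump with its highest values, 26.7% and 38.7%, 500 and 450 bp downstream, and H3K27ac stays at or below 13.6%.

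H3K4me3 covered fewer promoter bases and was weaker at bivalent than at H3K4me3-only promoters, which is a description since the mark chose the classes. The median cover was 1557 bp in replicate 1 and 1160 bp in replicate 2, with quartiles of 1005 to 2333 and 698 to 1849 bp. At H3K4me3-only promoters it was 1765 and 1452 bp. Its median highest fold enrichment was 10.6 and 8.42, against 25.7 and 18.4. The 5 members with the most H3K4me3 in the lower replicate were *Ptch1*, the zinc finger gene *Bcl11a* (6430 and 5939 bp), *Hoxc5* (6565 and 5832 bp), the receptor phosphatase gene *Ptprs* (6759 and 5534 bp) and the ankyrin gene *Ank1* (6369 and 5431 bp). Of these 5, *Bcl11a* alone lacked H3K27ac in both replicates, and the other 4 carried it in both.

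H3K27me3 covered a median of 471 bp in replicate 1 and 1071 bp in replicate 2 at bivalent promoters, with quartiles of 190 to 1152 and 474 to 2150 bp. The replicate difference was in the same direction as the number of peaks in the lists. At H3K27me3-only promoters the medians were 300 and 1007 bp. In the lists H3K27me3 came as several short peaks, with a median of 2 and 4 per member and up to 28 and 31. H3K4me3 had a median of 1. Over the whole lists, the median width of an H3K27me3 peak was 176 and 181 bp. These numbers and widths depend on how the peaks were called, and whether the mark itself is broken up was not tested. The ranks of the members agreed between replicates, with a Spearman's rho across the 845 genes of 0.842 for H3K27me3 bases and 0.924 for H3K4me3 bases, where genes are not independent of each other. For the highest fold enrichment, rho was lower for H3K27me3, 0.59, than for H3K4me3, 0.919. Between the marks, rho was 0.08 and -0.004 in replicates 1 and 2. Wide H3K4me3 and wide H3K27me3 thus did not go together among the members.

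**Figure D4:**
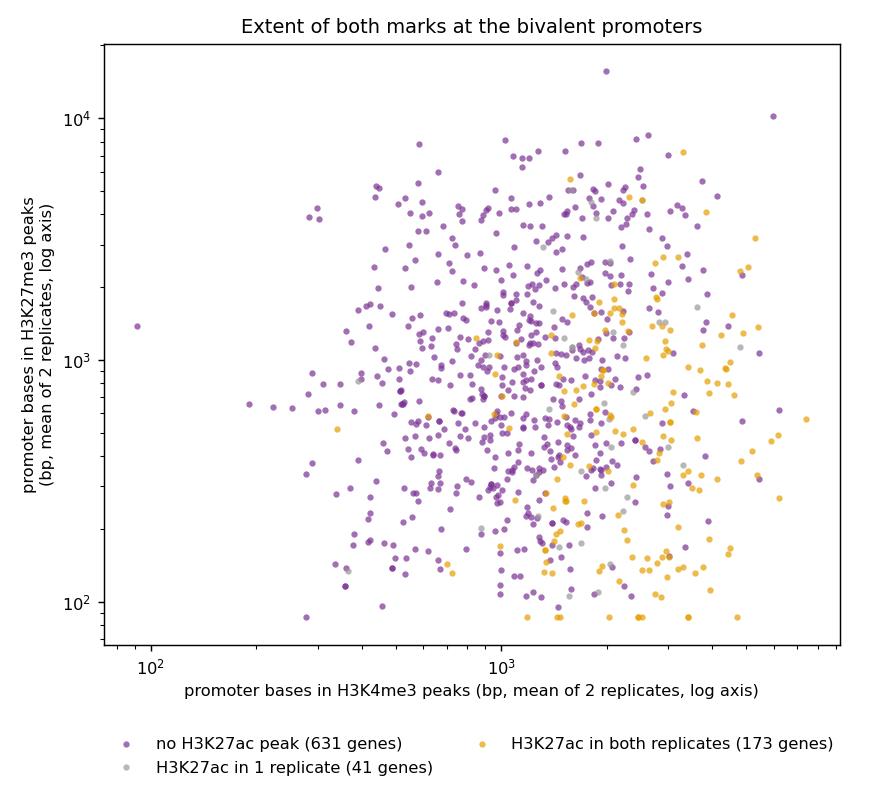
Promoter bases inside H3K4me3 peaks (x axis) and H3K27me3 peaks (y axis) of each of the 845 bivalent genes, in bp on log axes, as the mean of 2 replicates, coloured by H3K27ac. Genes with H3K27ac in both replicates (173) lie toward long H3K4me3, and the genes without (631) spread over the full height.

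The members with H3K27ac had broader and higher H3K4me3 and shorter H3K27me3. In the 173 genes with H3K27ac in both replicates, H3K4me3 covered a median of 2644 and 2132 bp with median fold enrichments of 23.9 and 17.2. In the 631 without, it covered 1331 and 928 bp with fold enrichments of 8.79 and 6.94. H3K27me3 covered 298 and 699 bp in the first and 516 and 1210 bp in the second. ATAC-seq followed H3K4me3, with 1014 and 1008 bp against 545 and 530 bp. Genes with H3K27ac also had more promoter sequence, a median of 12328 bp against 7667 bp over all TSSs. Cover was not set against promoter length, so that the differences in H3K4me3 and ATAC-seq cover hold for whole genes and not per TSS. Ranked by H3K27me3 bases in the lower replicate and cut into 3 equal groups, the members had H3K27ac in 32.6% and 28.7% of the lowest group, 24.8% and 21.6% of the middle and 16.7% and 12.8% of the highest group in replicates 1 and 2. In both libraries the share fell from group to group, and no test was made of it.

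The highest group, with 857 bp or more of H3K27me3 in the lower replicate, held 79 of the 98 bivalent homeobox genes, and the lowest group, with 232 bp or less, held 3. The marks overlapped in both replicates at 95.7% of the highest group and 45.4% of the lowest. H3K27me3 reached a q of 0.05 in both replicates at 99.3% and 32.6%. ATAC-seq peaks were found at 100% and 96.1% of the highest group and at 97.9% and 96.5% of the lowest, so that openness was about equal.

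The 6 members with the highest H3K27ac in the lower replicate were not developmental regulators. They were *Pfdn4*, a prefoldin subunit, *Kif5a*, a kinesin motor, *Mical3*, an actin-oxidising enzyme, *Gpbp1*, *Nt5c2*, a nucleotidase, and *Ppm1l*, a protein phosphatase. *Pfdn4* had H3K27ac fold enrichments of 51.7 and 41.6 and H3K4me3 fold enrichments of 41.97 and 34.15, with 630 and 1752 bp of H3K27me3. *Kif5a* had H3K27ac at 43.3 and 37.2 and only 107 and 178 bp of H3K27me3. *Mical3* had H3K27ac at 37.6 and 27.95 with 206 and 189 bp of H3K27me3. All 6 had ATAC-seq peaks in both replicates. In the transcription factor lists without *Zfp* genes, 18 of the 165 members, or 10.9%, had H3K27ac in both replicates, beside 20.5% of all members.

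H3K27ac and H3K27me3 rarely shared the same bases. Of the 173 bivalent genes with H3K27ac in both replicates, an H3K27ac peak overlapped an H3K27me3 peak in 28 genes in replicate 1 and 29 in replicate 2, or 16.2% and 16.8%. An H3K27ac peak overlapped an H3K4me3 peak in 98.3% and 97.1% of them. The nearest H3K27ac and H3K27me3 peaks were a median of 1329 and 1267 bp apart. In 113 of the 173 genes all 4 features lay within 3 kb of the same TSS in both replicates, and in 1 of the others no ATAC-seq peak was listed in either replicate. At *Irx5*, for example, H3K27ac had fold enrichments of 11.1 and 5.88 beside 2780 and 3602 bp of H3K27me3, and the peaks of H3K4me3 and H3K27me3 overlapped. At *Fgf20*, in contrast, the H3K4me3 and H3K27me3 peaks lay 20672 bp apart in replicate 1, at different TSSs.

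H3K4me3 and H3K27me3 themselves lay close together. In 814 of 845 members, or 96.3%, both marks lay within 3 kb of the same TSS in both replicates. Peaks of the marks overlapped by at least 1 bp in both replicates in 598 members, or 70.8%, and in neither replicate in 82. In replicates 1 and 2 the overlap was found in 666 and 693 members. Where the peaks did not overlap, the gap had a median of 430 and 676 bp. Of the H3K27me3 promoter bases of a member, a median of 45% and 26.1% lay inside H3K4me3 peaks. H3K27me3 therefore reached beyond H3K4me3 at most members, and in 180 and 61 members it lay wholly inside. An H3K27me3 peak overlapped an ATAC-seq peak in 55.5% and 62.5% of members.

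Relative to the TSS, H3K27me3 was the most spread of the marks. Its summits lay a median of 909 and 1012 bp from the nearest TSS of the gene, against 252 and 258 bp for H3K4me3, 342 and 294 bp for H3K27ac and 400 and 412 bp for ATAC-seq. Of the H3K27me3 summits 33.1% and 29.4% were within 500 bp of a TSS, against 67.6% and 67.3% of H3K4me3 summits. H3K4me3 summits lay downstream of the TSS in 64.5% and 64.9% of cases, and H3K27me3 summits in 56.6% and 54.9%.

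Members shared the properties of CpG-rich promoters with other H3K4me3 genes. Within 500 bp of the anchor TSS, the median CpG observed/expected ratio was 0.736 (quartiles 0.613 to 0.836) in bivalent genes, 0.732 (0.59 to 0.843) in H3K4me3-only genes, 0.601 (0.448 to 0.718) in H3K27me3-only genes and 0.573 (0.229 to 0.775) in all protein-coding genes. The median GC content was 62.7%, 59%, 57.9% and 55.1% in the same order. A ratio of at least 0.6 together with a GC content of at least 50% was found in 75.7% of bivalent, 71.6% of H3K4me3-only, 50.4% of H3K27me3-only and 46% of all genes. H3K4me3 chose 2 of the 3 classes and the anchor TSS, so that these values describe the classes. Among genes with 1 TSS the classes were less alike, with a median ratio of 0.757 in bivalent and 0.701 in H3K4me3-only genes. Members whose marks overlapped in both replicates had a median ratio of 0.749, and the remaining members 0.671.

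**Figure D5:**
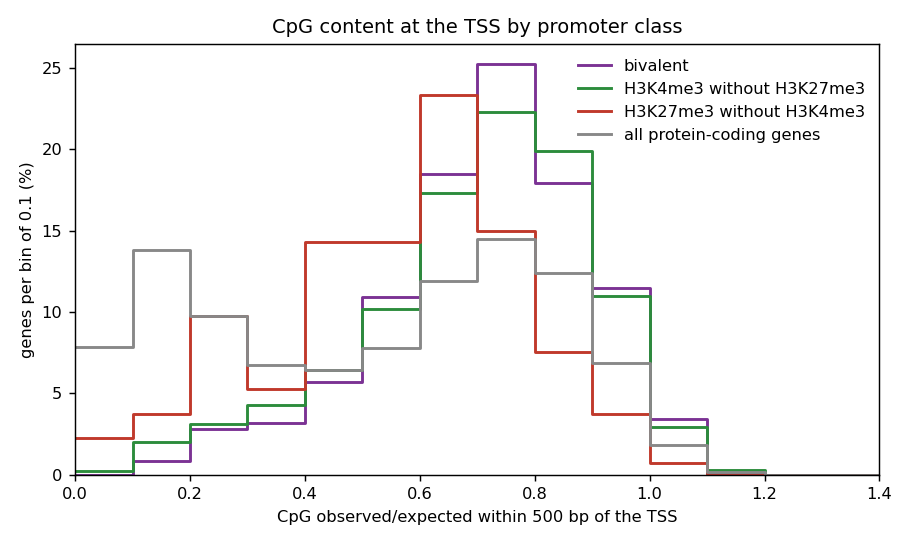
Distribution of the CpG observed/expected ratio within 500 bp of the anchor TSS in bins of 0.1, as percent of the genes of each class. Bivalent and H3K4me3-only genes have nearly the same single hump, with medians of 0.736 and 0.732, whereas all protein-coding genes also have a group of low ratios.

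The members were spread over the chromosomes with exceptions. From 2.55% (chromosome 14) to 4.82% (chromosome 11) of the protein-coding genes of an autosome were bivalent, but only 6 of 948 on chromosome X, or 0.633%, and 0 of 183 on chromosome Y. Of the members 216, or 25.6%, were next to another member in the order of protein-coding genes, in 97 groups. The largest groups were 5 *Hoxc* genes from *Hoxc13* to *Hoxc5* and 5 genes around *Bcl6b* and *Alox12* on chromosome 11. Groups of 4 held *Foxq1*, *A530084C06Rik*, *Foxf2* and *Foxc1* on chromosome 13, and *Hoxd9*, *Hoxd8*, *Hoxd3* and *Hoxd4* on chromosome 2. Neighbours are not independent, since 118 members shared an H3K27me3 peak with another member in each replicate. The 845 members took up 2754 of 6064 H3K27me3 peaks in replicate 1 and 3746 of 10458 in replicate 2, or 45.4% and 35.8% of the lists.

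Some members took their H3K27me3 from beside another gene. In 798 members, or 94.4%, the gene's own TSS was the nearest protein-coding TSS to at least 1 of its H3K27me3 summits in both replicates. This held for 97% of the members without H3K27ac and 85% of those with H3K27ac in both replicates. Among the other 47 members H3K27ac was found in 57.4% in each replicate, against 22.8% and 18.9% of the 798. The difference from H3K4me3-only genes was −63.7 percentage points with the 798 genes alone.

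Members near the limits of the rule were few in distance but many in strength. H3K27me3 peaks of both replicates came within 1 kb of a TSS in 721 members, or 85.3%, and the farther of the nearest peaks was over 2 kb away in 30. Just inside the limit were *Rtn2*, with H3K27me3 2969 and 2436 bp from a TSS in replicates 1 and 2, and *Inppl1*, with 2851 and 2692 bp. Just outside were *Plekhd1*, with 3051 and 89 bp, and *Nfic*, with 3062 and 1708 bp. A further 607 genes had H3K4me3 in both replicates and H3K27me3 in 1 replicate only, and 77 had H3K27me3 in both and H3K4me3 in 1 only, so that the class is smaller than a rule from a single replicate would give. Of the 1055 genes with H3K27me3 in both replicates, 845 were bivalent. With H3K27me3 peaks at a q of at most 0.05 only, 574 genes remained, or 67.9% of the members. H3K27ac was found at 22.1% and 19% of them. The families did not hold equally under this limit. It kept 92 of the 98 homeobox genes and 149 of the 165 transcription factor members outside *Zfp*. Of the 47 signalling members only 27 remained, and of the 57 membrane members 39. Of the 10 Wnt ligands 6 remained, and of the 20 potassium channel genes 11.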

How the data were processed

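Used here were 8 deposited peak lists, from ATAC-seq, H3K4me3, H3K27me3 and H3K27ac in MuSCs, 2 replicates each. According to the paper and the submitters' processing notes, the authors trimmed reads with Trim Galore 0.6.10, aligned them to mm10 with BWA 0.7.17-r1188, removed reads with a mapping quality under 30, duplicates and blacklisted regions with SAMtools 1.5 and other tools, shifted ATAC-seq reads for the Tn5 offset with deepTools 3.5.5, and called peaks per library with MACS2 2.2.6. In the deposited lists, fold enrichment over background is a ratio, and the authors give p-values and q-values as −log10. The deposited score was not used. The H3K27me3 lists hold peaks with p up to 0.001. Fold enrichments were compared within a list.

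Peaks were set against the TSSs of 21938 protein-coding genes of GENCODE M21 on 21 chromosomes, with overlap counted from 1 bp and promoters as 3 kb either side of any TSS. H3K4me3-only genes had H3K4me3 in both replicates and H3K27me3 in neither, and H3K27me3-only genes the reverse. Promoter bases are the bases of a gene's promoters inside peaks, each base counted once. Where several peaks reached a promoter, the highest fold enrichment was taken. CpG content was read from GRCm38.p6. Library shares were compared by an exact permutation test, two-sided, and nothing else was tested. Where no peak was listed, a promoter was taken as unmarked.

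Named genes are, per list, up to 4 members with the most H3K27me3 bases in the lower replicate, the 6 with the highest H3K27ac, the 5 with the most H3K4me3, members among the cell type lists, and those nearest the 3 kb limit. Some items are not reported here, and only part of the genes chosen by this rule are printed. *Hox* genes and neighbouring members named by class, and *Pax7* and the myogenic bHLH genes, were added after their values had been seen. The members, the 41 gene lists and the tests were chosen with earlier results of these data known. The editing samples were not analysed here. Simulated peaks at 2000 genes were used to test the counting, and 249 of 249 genes planted with both marks were recovered. Python 3.11.15, numpy 2.4.6, scipy 1.17.1 and matplotlib 3.10.9 were used.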

Additional observations from a re-analysis of the deposited data

How the results depend on the processing

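The H3K27ac difference between bivalent and H3K4me3-only genes, −61.7 percentage points, and the ATAC-seq difference, −1.77, kept their direction under every alternative tried. These were a promoter of 1 kb, H3K27me3 at a q of at most 0.05, only those peaks whose −log10 q reached 5, equal numbers of top-ranked peaks, an overlap of at least 50 bp, the 5-prime end of the gene only, and each replicate left out, and 3 alternatives chosen after seeing the data, namely overlapping marks only, genes with 1 TSS only, and H3K27me3 nearest to the gene's own TSS. The H3K27ac difference ran from −68 with the 5-prime end only to −53.5 with a −log10 q limit of 5, and the ATAC-seq difference from −4.61 with 1 kb to −0.21 with a −log10 q limit of 5. With a replicate left out they were −56.8 to −53.9 and −2.25 to −0.479. With replicate numbers as pairs (replicate block), the differences were the same, −61.7 and −1.77, with an exact permutation p of 0.5 for each, the smallest that 2 pairs can give. Each pair here is 1 library, in which both classes were measured. Across the features the numbers come from the titles alone, and nothing in the labels says that they mark a shared mouse or day. The number of bivalent genes was 845. It depended on strength and replicates, with 89 at a −log10 q limit of 5, 1303 without replicate 1 and 1077 without replicate 2. Under the remaining alternatives it was 574 to 843. The share with both marks at the same TSS, 96.3%, was 94.1% with 1 kb, 95.8% at a q of at most 0.05, 93.3% at a −log10 q limit of 5, 96.6% with equal numbers of peaks, 100% by construction with the 5-prime end only, and 95.9% to 97.3% with a replicate left out. The share with overlapping peaks, 70.8%, was 76.5% with 1 kb, 68% with an overlap of at least 50 bp and 69.7% to 75.8% with a replicate left out. The H3K27me3 cover, 771 bp as the mean of the replicate medians, was 797 bp with the whole width of the peaks. The median CpG observed/expected ratio was 0.736 within 500 bp and 0.667 within 1 kb. At H3K4me3-only genes it was 0.732 and 0.621, so that the near equality of the classes held for the shorter window only. The homeobox count was 98, and 92 at a q of at most 0.05. The signalling lists fell from 47 to 27 members at this limit, and the membrane lists from 57 to 39. Beyond the alternatives that need fewer peaks, replicates or bases by construction, the cause of these changes was not tested. With 2 libraries, each of which gave a share for both classes, the exact permutation test could not pass 0.05. Without read numbers a missing peak cannot be told from low depth, most of all for H3K27me3, where few peaks were strong.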

Other observations

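Genes outside the lists were looked at after their values had been seen, and they are given as values. *Igf2bp1* (chromosome 11 from 95957163 to 96005940) had 3845 and 4645 bp in H3K27me3 peaks in replicates 1 and 2, only 378 and 219 bp in H3K4me3 peaks, and no H3K27ac. Its paralogs *Igf2bp2* and *Igf2bp3* carried H3K27ac in both replicates, with fold enrichments of 7.28 and 5.88 and of 6.52 and 6.13. *Igf2bp3* nevertheless had 3154 and 2176 bp of H3K27me3. *Lin28b*, a regulator of let-7 microRNAs, had 3724 and 5200 bp of H3K27me3 and no H3K27ac.

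*Bmi1* and *Cbx8*, which encode subunits of Polycomb repressive complex 1, were bivalent with H3K27ac in both replicates. No list of Polycomb genes was counted. *Cbx8* had 1338 and 2125 bp of H3K27me3 and H3K27ac fold enrichments of 5.37 and 5.52. At *Bmi1* the peaks of the 2 marks overlapped in both replicates, with H3K4me3 fold enrichments of 39.4 and 30.2.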
